A study of Mus musculus with 9 samples.

Results

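The 36 genes described here make sterols and fatty acids or carry cholesterol out of the cell, and they were taken by symbol from the 54532 genes of the expression table, in which all 36 were found. Of these, 28 belong to synthesis and its control and 8 to efflux, oxysterol formation and ester storage. RNA-seq was performed on RAW 264.7 cells, a mouse macrophage line that the labels describe as WT and derived from ascites, in 3 groups of 3 libraries. Control cells were untreated, LPS cells received lipopolysaccharide at 1 μg/ml for 6 h, and LPS + G-CDs cells received the same LPS together with 400 μg/ml of G-CDs, which are carbon dots prepared from Glycyrrhiza (licorice). The G-CDs group is named by its sample titles, whereas its treatment label lists LPS alone, and the G-CDs dose and the time come from the methods of the study. No group received G-CDs without LPS, and RAW 264.7 is 1 transformed line in culture. The labels and the sequencing methods do not state that the 3 libraries of a group came from separate cultures. The p-values therefore measure the spread between these libraries, which may be technical.

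Cells build cholesterol from acetyl-CoA through the mevalonate arm, which ends in farnesyl pyrophosphate, and the sterol arm, which starts at squalene and ends in cholesterol. SREBP transcription factors, held in the endoplasmic reticulum by INSIG proteins and escorted out by SCAP, switch on these enzymes when sterol is scarce, with SREBP2 directed mainly at cholesterol and SREBP1 mainly at fatty acid genes. Liver X receptors (LXRs) respond to oxysterols when sterol is plentiful and drive efflux genes such as Abca1 and Abcg1 as well as Srebf1 and the desaturases, and macrophages depend on this efflux to avoid filling with cholesterol esters.

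Between 14752400 and 17312255 reads per library fell on genes. Libraries within LPS were closer to each other (Pearson's r across genes of 0.987 to 0.988) than within control (0.94 to 0.969) or LPS + G-CDs (0.935 to 0.975). Several libraries stood apart by gene length when genes were split into 4 equal classes. In LPS + G-CDs library 1 the class of longest genes deviated from the group mean by 0.24 (median, log2) and that of the shortest by −0.27, library 3 went the other way with −0.23 and 0.30, and control library 3 had −0.19 and 0.18. Among macrophage markers 7 of 8 reached a mean FPKM of 1, Mertk being listed at 0, and none of 18 markers of T cells, B cells, fibroblasts, epithelium, hepatocytes or neutrophils did so in any group. In bulk RNA a change in the share of cells that express a gene and a change in RNA per cell cannot be told apart.

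Promoter sequence was examined because SREBP2 targets share short control elements. A RefSeq promoter (GRCm38.p6, 250 bases before to 50 after the start) was found for 29 of 36 members, the others being Fdps, Fdft1, Sqle, Scd1, Scd2, Stard4 and Abcg1. A CCAAT box (CCAAT, either strand), bound by the SREBP partner NF-Y, lay in 14 of 15 matched genes of the mevalonate and sterol arms (93.3%), against 41.1% of 27025 genes with a promoter. Over all 29 matched members the share was 72.4%, and over the 7 matched genes of efflux and ester storage it was 28.6%. The SRE-like word TCACNCCA (either strand) was present in 4 of 29 matched members (13.8%), namely Hmgcs1, Msmo1, Srebf2 and Apoe, against 4.97% of all genes. Its first base lay 137 bases before the start in Hmgcs1, 162 in Srebf2, 177 in Msmo1 and 213 in Apoe. A match is a description of letters and shows no binding. The 4 stretches below, read 5′ to 3′ on the strand of the gene with any match in capitals (ATTGG is CCAAT on the other strand), show both words in an early enzyme, the SREBP2 gene itself and Msmo1, and CCAAT boxes alone in Hsd17b7, Msmo1 and Hsd17b7 being sterol-arm enzymes that rose with LPS.
Hmgcs1, chr13:119690101-119690350, plus strand: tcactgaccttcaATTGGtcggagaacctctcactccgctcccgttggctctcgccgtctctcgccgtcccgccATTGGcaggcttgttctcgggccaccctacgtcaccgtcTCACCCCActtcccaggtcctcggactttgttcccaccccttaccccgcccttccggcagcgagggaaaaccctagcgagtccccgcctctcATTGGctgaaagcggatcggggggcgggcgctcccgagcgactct
Srebf2, chr15:82147019-82147180, plus strand: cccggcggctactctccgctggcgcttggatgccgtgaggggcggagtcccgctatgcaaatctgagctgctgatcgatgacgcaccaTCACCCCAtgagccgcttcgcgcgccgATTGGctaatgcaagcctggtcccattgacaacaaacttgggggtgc
Hsd17b7, chr1:169969242-169969455, minus strand: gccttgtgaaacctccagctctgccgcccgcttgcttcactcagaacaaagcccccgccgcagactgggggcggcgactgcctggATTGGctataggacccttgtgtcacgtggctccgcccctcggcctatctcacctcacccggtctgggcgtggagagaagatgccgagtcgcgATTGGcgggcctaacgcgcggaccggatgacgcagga
Msmo1, chr8:64733730-64733759, minus strand: attcTCACTCCAtccgcgcagCCAATgact
The Hmgcs1 and Srebf2 stretches overlap no gene in GENCODE M21, the Hsd17b7 stretch overlaps an exon of 3110045C21Rik, and the Msmo1 window lies in an annotated untranslated exon of Msmo1. Bases that lie inside the deposited span of the gene were left out for Srebf2 and Hsd17b7.

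Levels are given as FPKM, which is per deposited length of gene. That length departs unevenly from the longest GENCODE M21 transcript, with 6144 against 2969 bases for Msmo1 and 5453 against 5455 for Scd2. Levels of different genes can therefore be set side by side only roughly. In control cells Scd2, a stearoyl-CoA desaturase, was the most abundant member at 307 ± 44.9 FPKM (SD, n = 3). Fasn, the fatty acid synthase, followed at 98.9 ± 29.9, and Scd1, a second desaturase, at 93.8 ± 15.8, and these neighbours overlapped. Srebf2 came next at 50.7 ± 6.28, and Mvd (41.1 ± 5.04), Acat2 (40.1 ± 2.89) and Srebf1 (39.6 ± 6.01) overlapped one another. Lowest among the tested members was Nr1h3, which encodes LXRα, at 1.40 ± 0.298 FPKM, against 14.04 ± 1.2 for Nr1h2, which encodes LXRβ. The test took genes that reached 1 FPKM in 3 or more of the 9 libraries, which left 11585 genes, 33 members among them, and left out Tm7sf2, Abca1 and Ch25h.

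The first comparison addressed what LPS did to these transcripts. With LPS the cholesterol exporter Abcg1 and both desaturases fell furthest, Srebf1 and Apoe fell with them, and the sterol arm moved in both directions, with Fdft1, Msmo1, Hsd17b7 and Sc5d higher and Dhcr7 lower. By limma on log2(FPKM + 1) with Benjamini-Hochberg adjustment over all genes, 5 members rose and 7 fell at an adjusted p under 0.05, against 15.8% of all tested genes called higher and 15.6% called lower. The 33 members had a median log2 change of 0.016, and all genes one of 0.016.

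Efflux genes carried the largest single change. Abcg1 (chr17:31057698-31115777, plus strand), which passes cholesterol to HDL, read 15.7, 17.0 and 14.4 FPKM in control, 2.05, 2.39 and 2.35 in LPS, and 3.08, 2.92 and 2.40 in LPS + G-CDs. Every library with LPS lay far below every control library. The LPS change was −2.35 on the log2 scale (SE 0.12, limma adjusted p = 1.24e-06), and it stayed called under all 21 alternative settings. Apoe, the apolipoprotein that accepts effluxed cholesterol, read 7.68, 5.93 and 9.67 FPKM in control and 3.93, 2.64 and 5.86 in LPS. The groups did not overlap, though LPS library 3 came close to control library 2, and the change was −0.79 (SE 0.25, limma adjusted p = 0.042). This call held in 14 of 21 alternatives, with an adjusted p of up to 0.15. Mylip, an LXR target that marks lipoprotein receptors for degradation, overlapped between the groups at 3.46 ± 0.732 and 3.64 ± 0.329 FPKM.

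The receptors themselves did not pass the test. Nr1h3 had a log2 change of 0.31 (SE 0.20, limma adjusted p = 0.27) and Nr1h2 one of 0.11 (SE 0.16, limma adjusted p = 0.65), with overlapping libraries in each. Abca1, the partner exporter that loads cholesterol onto apolipoprotein A-I, stayed below 1 FPKM throughout, with 29, 34 and 14 reads in control, 75, 49 and 65 in LPS, and 27, 25 and 7 in LPS + G-CDs. The LPS libraries thus held the 3 highest counts, opposite in direction to Abcg1. In the fit with no filter its log2 change was 0.33 (limma adjusted p = 0.017) for LPS against control and −0.35 (limma adjusted p = 0.17) for LPS + G-CDs against LPS. Such values understate the fold of a gene at this level because of the added 1.

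In ester storage, Soat1, which esterifies cholesterol in macrophages, read 16.1, 22.0 and 15.4 FPKM in control and 28.9, 30.2 and 28.2 in LPS. The groups stood clear of each other, with a log2 change of 0.69 (SE 0.19, limma adjusted p = 0.025) that was called in 14 of 21 alternatives. Ch25h, which makes 25-hydroxycholesterol, had 0 reads in each control library, 3, 1 and 3 in LPS, and 0, 1 and 3 in LPS + G-CDs. All of these are at or under the floor of 3 reads, equal to at most 0.161 FPKM, so no fold is given and a difference was not detectable at this depth.

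**Figure D1:**
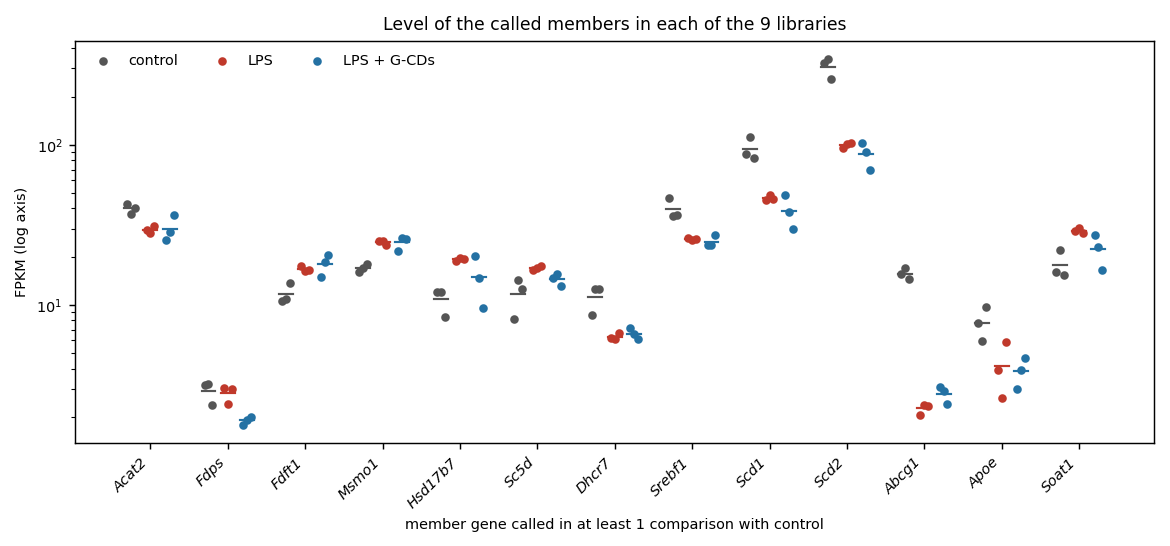
FPKM on a log axis for the 13 members called in at least 1 comparison with control, with 1 point per library, a short line at each group mean, and control in grey, LPS in red and LPS + G-CDs in blue. Abcg1 falls from a control mean of 15.7 FPKM to 2.26 with LPS and 2.80 with LPS + G-CDs, and the blue points of Hsd17b7 and Soat1 spread from the red level down to the grey.

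Fatty acid synthesis split by step. Scd2 (chr19:44293676-44306864, plus strand) read 322, 343 and 257 FPKM in control, 95.3, 101 and 103 in LPS, and 102, 90.7 and 69.7 in LPS + G-CDs. Its LPS change was −1.60 (SE 0.18, limma adjusted p = 0.00017). Scd1 (chr19:44394451-44407709, minus strand) read 87.2, 112 and 82.4 FPKM in control, 45.4, 48.6 and 46.1 in LPS, and 48.5, 38.1 and 29.9 in LPS + G-CDs, with an LPS change of −0.98 (SE 0.19, limma adjusted p = 0.0042). For both desaturases every LPS library lay below every control library, and both calls held under all 21 alternatives. At most 4.7% of the 50-base words of either desaturase occur in another gene. The earlier steps did not pass, with Acaca, the acetyl-CoA carboxylase, at 9.17 ± 2.51 and 10.7 ± 0.815 FPKM and Fasn at 98.9 ± 29.9 and 112 ± 4.58 in control and LPS.

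Of the SREBP machinery, Srebf1 (chr11:60199089-60222581, minus strand) read 46.5, 35.9 and 36.4 FPKM in control, 26.3, 25.4 and 26.0 in LPS, and 23.8, 23.6 and 27.2 in LPS + G-CDs. The LPS libraries lay below all controls, and the change of −0.58 (SE 0.13, limma adjusted p = 0.0087) was called under all 21 alternatives. Srebf2 read 54.6, 54.1 and 43.5 FPKM in control and 62.7, 56.1 and 59.4 in LPS, a change of 0.23 (SE 0.16, limma adjusted p = 0.31). Insig1, itself an SREBP target, changed by 0.35 (SE 0.18, limma adjusted p = 0.16), Insig2 by 0.014 (SE 0.11, limma adjusted p = 0.93) and Scap by −0.12 (SE 0.11, limma adjusted p = 0.44), none past the threshold. Stard4, a carrier of free cholesterol in the cytosol, overlapped between the groups at 21.6 ± 7.61 and 19.2 ± 1.03 FPKM. The counting is not stated to use strand, and Srebf1 overlaps Rai1 on the other strand.

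In the mevalonate arm 1 of 7 members was called. Acat2, which joins acetyl-CoA units, read 42.9, 37.1 and 40.4 FPKM in control and 29.3, 27.9 and 31.0 in LPS, a change of −0.44 (SE 0.15, limma adjusted p = 0.0497) that is at the threshold and was called in 11 of 21 alternatives. Acat2 shares 45.9% of its 50-base words with Acat3, so its reads may be split with that gene. Hmgcs1, which makes HMG-CoA, overlapped at 23.7 ± 3.67 and 29.2 ± 3.04 FPKM, and Fdps, the farnesyl pyrophosphate synthase, at 2.92 ± 0.471 and 2.82 ± 0.356. The kinases Mvk (−0.60) and Pmvk (−0.79) and the decarboxylase Mvd (−0.36) had negative log2 changes, and the isomerase Idi1 a positive one (0.53). None of them was called (limma adjusted p of 0.071, 0.11, 0.17 and 0.16). With the replicate number as a block Mvk was called lower (limma adjusted p = 0.043), as was Ebp of the sterol arm (limma adjusted p = 0.040).

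The sterol arm held 4 of the 5 members that rose. Msmo1 (chr8:64718139-64733792, minus strand), which strips methyl groups from the sterol ring, read 15.99, 17.1 and 17.9 FPKM in control, 25.2, 25.2 and 23.6 in LPS, and 21.8, 26.2 and 26.0 in LPS + G-CDs. All LPS libraries exceeded all controls, with a change of 0.51 (SE 0.11, limma adjusted p = 0.0081) that was called in 20 of 21 alternatives. Hsd17b7, a sterol ketoreductase, read 12.0, 12.1 and 8.46 FPKM in control and 18.9, 19.6 and 19.2 in LPS, a change of 0.79 (SE 0.24, limma adjusted p = 0.033). Fdft1, the squalene synthase at the entry of the arm, read 10.5, 10.9 and 13.8 FPKM in control and 17.6, 16.3 and 16.5 in LPS, a change of 0.49 (SE 0.15, limma adjusted p = 0.033). Sc5d, a desaturase near its end, read 8.17, 14.2 and 12.5 FPKM in control and 16.6, 17.0 and 17.5 in LPS, a change of 0.54 (SE 0.18, limma adjusted p = 0.048). For these 3 enzymes too the groups stood apart, but Hsd17b7 was called in 11 of 21 alternatives, Fdft1 in 13 and Sc5d in 7. Fdft1 overlaps Ctsb on the other strand and shares 10.9% of its 50-base words with Gm6781, so its reads could include those of either gene.

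Dhcr7 (chr7:143823145-143848410, plus strand), the reductase of the final steps, went the other way. It read 8.68, 12.6 and 12.5 FPKM in control, 6.18, 6.11 and 6.69 in LPS, and 7.23, 6.54 and 6.12 in LPS + G-CDs. All libraries with LPS lay below all controls, and the change of −0.73 (SE 0.15, limma adjusted p = 0.0057) was called under all 21 alternatives. Tm7sf2, a sterol reductase below the filter, had 119, 90 and 98 reads in control and 38, 34 and 27 in LPS. Without the filter it was called lower, with a log2 change of −0.51 (limma adjusted p = 0.012), and it overlaps Vps51 on the same strand. Sqle, the squalene epoxidase (32.7 ± 2.18 and 31.4 ± 1.02 FPKM in control and LPS), and the next steps Lss (13.9 ± 2.45 and 15.0 ± 0.499), Cyp51 (28.6 ± 4.40 and 28.7 ± 1.52) and Nsdhl (13.3 ± 2.15 and 14.6 ± 0.084) overlapped between groups.

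The calls of higher members depended on scaling and on single libraries. On TPM, where the median of all genes moved to −0.21, 0 members were called higher and 11 lower, among 1015 and 3106 of the 11585 genes. After quantile normalisation the members gave 2 and 10, among 1633 and 2355 of all genes. The count of higher members was 1 without any of the 3 LPS libraries, 2 without control library 1 or 3 or LPS + G-CDs library 2, and 3 without control library 2, whereas lower calls ranged from 5 to 8. Higher calls over all genes, 1827 with every library, were 1294, 1289 and 1285 without LPS libraries 1, 2 and 3. They were 1699, 1644 and 1516 without control libraries 1, 2 and 3, and 1546 without LPS + G-CDs library 2. Lower calls over all genes, 1803 with every library, ranged from 1189 to 2120.

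**Figure D2:**
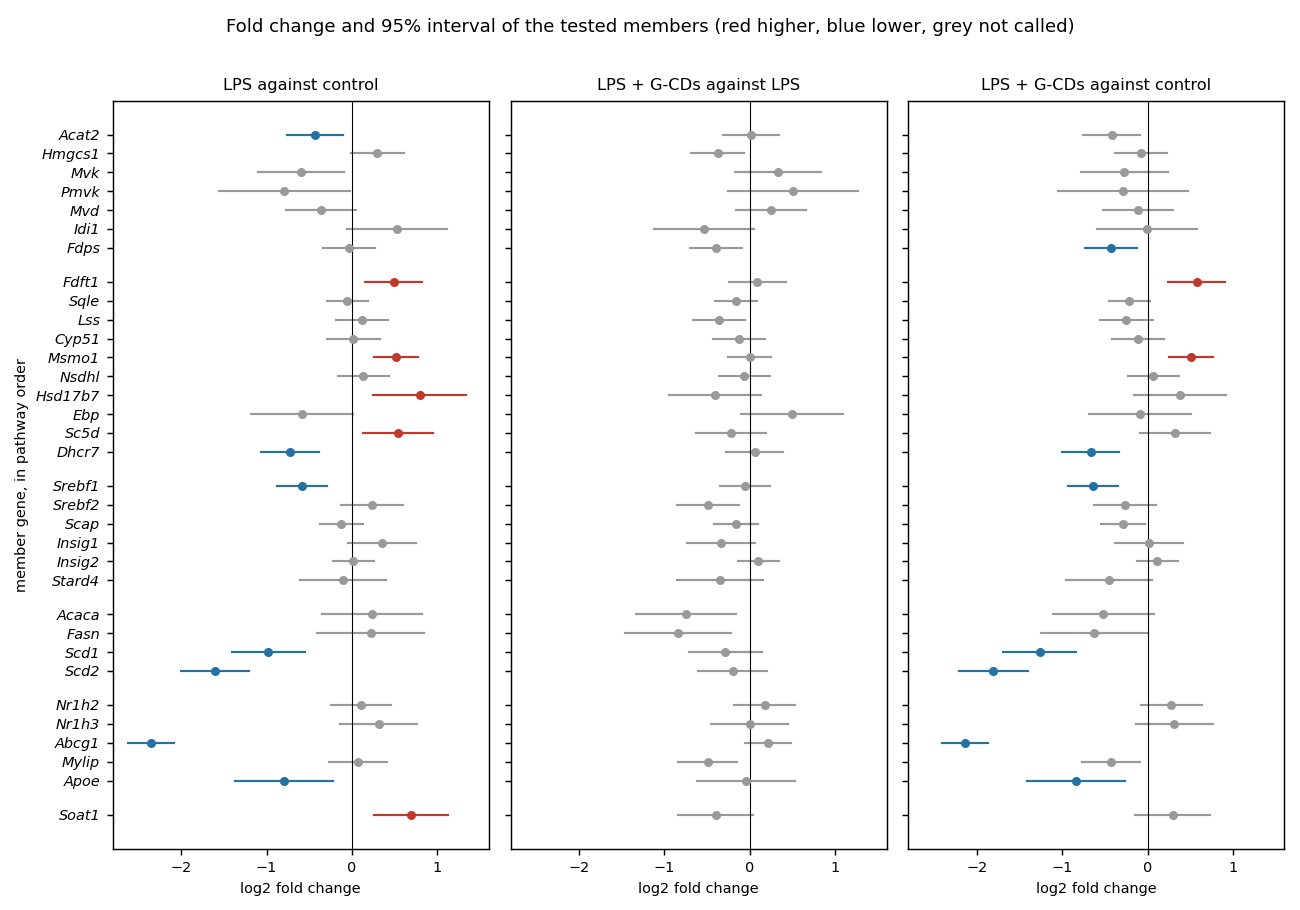
Log2 fold change (point) with its 95% interval (line) for the 33 tested members in pathway order, for LPS against control, LPS + G-CDs against LPS and LPS + G-CDs against control from left to right. Red and blue mark members called higher and lower by limma, of which there are 5 and 7 in the left panel, 0 in the middle and 2 and 7 in the right.

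The second comparison asked what G-CDs changed when given with LPS. No member passed the limma threshold in either direction (0 of 33), where 0.25% of all tested genes were called higher and 0.242% lower. At an unadjusted p under 0.05 there were 7 members, all lower (Fasn, Acaca, Mylip, Srebf2, Fdps, Hmgcs1 and Lss), against 7.19% of all genes higher and 8.04% lower at that p. Voom likewise called 0 members and had 7 at an unadjusted p under 0.05, all lower, but all genes were not counted at that p with voom. Apart from Srebf2 these genes were chosen after their values were seen. Of the 33 members 23 had a negative and 10 a positive log2 change, with a median of −0.16 against 0.017 for all genes.

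All 3 LPS + G-CDs libraries lay below all LPS libraries for 14 members and above them for 2 (Ebp and Abcg1), where 15% and 12.9% of all tested genes did so. The 14 included Srebf2, its escort Scap, Insig1 and Stard4, the mevalonate enzymes Hmgcs1, Idi1 and Fdps, the sterol enzymes Sqle, Lss and Sc5d, the fatty acid enzymes Acaca and Fasn, and Mylip and Soat1. These sets were likewise chosen by their values.

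The fatty acid enzymes Fasn and Acaca had the 2 most negative values as deposited, though neither was called. Fasn (chr11:120805846-120824547, minus strand) read 117, 108 and 111 FPKM in LPS and 87.8, 57.6 and 46.4 in LPS + G-CDs. The highest G-CDs library lay below the lowest LPS library, yet the G-CDs libraries spread widely, and the log2 change was −0.84 (95% interval −1.47 to −0.22, limma adjusted p = 0.27). Acaca read 11.3, 11.05 and 9.76 FPKM in LPS and 9.01, 5.38 and 4.23 in LPS + G-CDs, a change of −0.75 (95% interval −1.34 to −0.16, limma adjusted p = 0.28). It shares 52.6% of its 50-base words with Gm5182, which the counting could have split. Both genes are long, at 10947 and 17074 bases, and in the library that stood apart with low long genes (library 3) they were at their lowest. After the trend over gene length was taken out of every library, the change was −0.56 for Fasn (limma adjusted p = 0.16) and −0.34 for Acaca (limma adjusted p = 0.16), and Idi1 (−0.62) and Mylip (−0.60) were then more negative than both. Idi1 shares 21.3% of its 50-base words with 4 other genes and overlaps Gm48574 on the other strand.

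Srebf2 read 62.7, 56.1 and 59.4 FPKM in LPS and 49.7, 43.1 and 34.4 in LPS + G-CDs. The groups did not overlap, with a log2 change of −0.49 (95% interval −0.85 to −0.13, limma adjusted p = 0.27) and −0.34 with the length trend removed. The pathway enzymes Hmgcs1 (22.3, 22.9 and 21.5 FPKM with G-CDs) and Fdps (1.79, 1.92 and 2.0) were below LPS by −0.38 and −0.39 (limma adjusted p = 0.30 and 0.28), and by −0.37 and −0.41 without the trend. Other enzymes of the same arms were above LPS without a call, with 0.51 for Pmvk, 0.50 for Ebp, 0.33 for Mvk and 0.25 for Mvd (limma adjusted p of 0.40, 0.34, 0.41 and 0.43). With the trend removed these values fell to 0.24 for Pmvk, 0.29 for Ebp, 0.16 for Mvk and −0.00067 for Mvd. The median of the mevalonate arm was 0.013 as deposited and −0.17 with the trend removed. For Lss, of 10787 bases, the change moved from −0.36 to −0.09 once the trend was removed. Insig1 read 37.8, 40.1 and 42.4 FPKM in LPS and 33.8, 35.3 and 26.1 in LPS + G-CDs, a change of −0.34 (95% interval −0.74 to 0.06, limma adjusted p = 0.34). Scap changed by −0.16 (SE 0.11, limma adjusted p = 0.41), and by −0.0033 with the trend removed, and Insig2 by 0.10 (SE 0.11, limma adjusted p = 0.58).

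Mylip read 3.36, 3.56 and 4.0 FPKM in LPS and 2.67, 2.31 and 1.92 in LPS + G-CDs, a log2 change of −0.50 (95% interval −0.84 to −0.15, limma adjusted p = 0.25), and −0.60 with the trend removed. Abcg1 had a positive change of 0.22 (95% interval −0.05 to 0.49, limma adjusted p = 0.35), where the LPS change from control was −2.35. The other members that LPS lowered had intervals that include 0, with −0.29 for Scd1 (95% interval −0.71 to 0.14), −0.20 for Scd2 (−0.60 to 0.20) and −0.06 for Srebf1 (−0.35 to 0.24). Nr1h2 changed by 0.17 (SE 0.16, limma adjusted p = 0.51) and Nr1h3 by −0.0029 (SE 0.20, limma adjusted p = 0.99).

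Within the LPS + G-CDs group the libraries differed by more than within LPS. Pmvk, a gene of 1713 bases, read 14.5, 19.7 and 31.9 FPKM in LPS + G-CDs and 14.4, 14.9 and 14.1 in LPS. Hsd17b7, of 5104 bases, read 20.2, 14.8 and 9.61 FPKM, and Soat1, of 9791 bases, read 27.2, 22.8 and 16.6. Pmvk was thus highest in library 3, and Hsd17b7 and Soat1 were lowest there. In the same libraries Msmo1, of 6144 bases, read 21.8, 26.2 and 26.0 FPKM and Idi1, of 3505 bases, read 16.6, 14.7 and 9.67. The part of gene length in these differences was not tested gene by gene. Without LPS + G-CDs library 1 the members at an unadjusted limma p under 0.05 were 11 lower and 2 higher, and without library 3 they were 5 lower and 1 higher. Without LPS library 3 they were 4 lower and 0 higher, and 5 lower and 0 higher without LPS library 1 or 2. In each of these cases 0 members passed adjustment. All genes at that unadjusted p were counted only with every library, so these member counts have no share to be set against. Calls over all 11585 genes, 29 higher and 28 lower with every library, were 106 and 150 without LPS + G-CDs library 1, 7 and 4 without library 2 and 12 and 17 without library 3. They were 8 and 6, 7 and 5, and 11 and 10 without LPS libraries 1, 2 and 3, and 13 and 10 without control library 2.

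**Figure D3:**
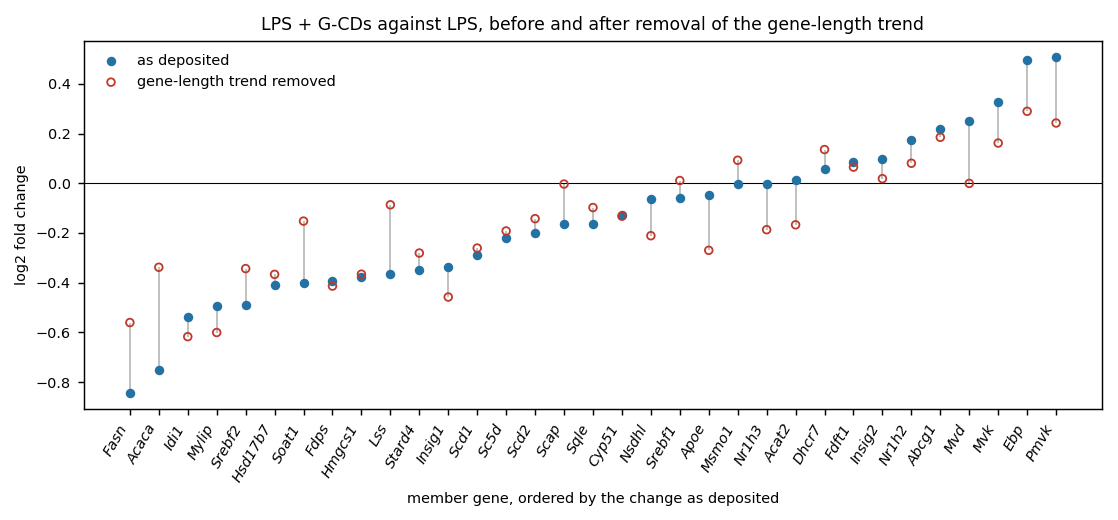
Log2 fold change of LPS + G-CDs against LPS for the 33 tested members, ordered by the change as deposited (filled blue) with the change after removal of the gene-length trend (open red) joined by a line. Fasn moves from −0.84 to −0.56, Acaca from −0.75 to −0.34 and Lss from −0.36 to −0.09, and the median of the members moves from −0.16 to −0.15.

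The third comparison set LPS + G-CDs against untreated cells, using the same control libraries as the first, so the counts of the comparisons are not independent. By limma 2 members were higher and 7 lower at an adjusted p under 0.05, against 12.8% and 12.4% of all tested genes. Abcg1 (−2.14, SE 0.12), Scd2 (−1.81, SE 0.18) and Scd1 (−1.27, SE 0.19) were again the most changed, with limma adjusted p of 2.6e-06, 9.9e-05 and 0.0012. Apoe (−0.84, SE 0.25, adjusted p = 0.040), Dhcr7 (−0.67, SE 0.15, adjusted p = 0.010) and Srebf1 (−0.64, SE 0.13, adjusted p = 0.0066) were also lower by limma, Apoe in 14 of 21 alternatives. Fdft1 (0.57, SE 0.15, adjusted p = 0.020) and Msmo1 (0.51, SE 0.11, adjusted p = 0.010) were higher by limma. They were called in 16 and 18 of 21 alternatives, but not with the 6 compared libraries alone (limma adjusted p of 0.079 and 0.061). The main model also holds the LPS libraries, which had a smaller spread. Its median SE over all genes was 0.18, against 0.21 with the 6 libraries.

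Acat2, Hsd17b7, Sc5d and Soat1 were called with LPS but did not pass here as deposited, while Fdps passed here and not with LPS. The former 4 had log2 changes from control of −0.42 for Acat2, 0.38 for Hsd17b7, 0.32 for Sc5d and 0.29 for Soat1 (limma adjusted p of 0.065, 0.29, 0.23 and 0.31), the last 3 of which were negative on TPM. With the gene-length trend removed Acat2 was called lower (−0.49, limma adjusted p = 0.0059) and Soat1 higher (0.39, limma adjusted p = 0.034), as were Acaca and Fasn lower, which gave 3 members higher and 10 lower, against 1785 and 1732 of all genes. Their direct difference between LPS + G-CDs and LPS was not called either, with 0.013 for Acat2, −0.41 for Hsd17b7, −0.22 for Sc5d and −0.40 for Soat1 (limma adjusted p of 0.96, 0.36, 0.47 and 0.33), and with the gene-length trend removed these values were −0.17, −0.37, −0.19 and −0.15. For Hsd17b7 the G-CDs libraries ran from 20.2 FPKM, above all LPS libraries, to 9.61, inside the control range, and for Soat1 from 27.2 to 16.6. Fdps read 3.15, 3.22 and 2.38 FPKM in control and 1.79, 1.92 and 2.0 in LPS + G-CDs, a log2 change of −0.43 (SE 0.13, limma adjusted p = 0.045), and it was called in 7 of 20 alternatives. Fdps shares 11.7% of its 50-base words with 5 other genes and overlaps Gm43738 and Gm22935 on the same strand. Its 109 to 249 reads per library may thus be split with those genes.

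Among the regulators that were not called, the log2 change from control was −0.26 for Srebf2 (SE 0.16, limma adjusted p = 0.28), −0.29 for Scap (SE 0.11, limma adjusted p = 0.098) and 0.017 for Insig1 (SE 0.18, limma adjusted p = 0.96). It was 0.11 for Insig2 (SE 0.11, limma adjusted p = 0.49), 0.28 for Nr1h2 (SE 0.16, limma adjusted p = 0.24) and 0.31 for Nr1h3 (SE 0.20, limma adjusted p = 0.30). The positive values of Insig1, Insig2 and Nr1h2 became negative on TPM. On TPM, where the median of all genes moved to −0.33, 0 members were higher and 16 lower, among 755 and 3255 of all genes. With the 6 libraries of these groups alone the members gave 0 and 6, among 951 and 838 of all genes. The count of higher members was 0 without LPS + G-CDs library 2 and 1 without control library 1 or 2. Higher calls over all genes, 1488 with every library, were 1017, 1329 and 1202 in these fits.

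**Figure D4:**
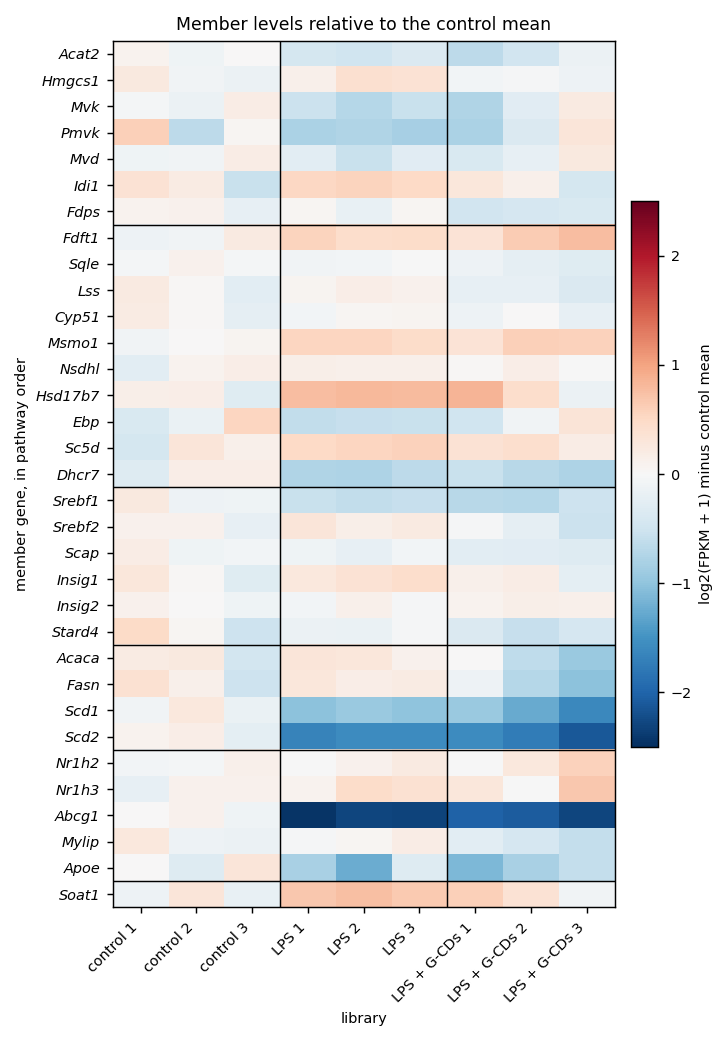
Difference of log2(FPKM + 1) from the control mean for the 33 tested members (in pathway order, black lines between groups of genes) in each of the 9 libraries, blue below and red above. Abcg1, Scd1 and Scd2 are blue in all 6 libraries with LPS, and Fasn and Acaca are blue in LPS + G-CDs libraries 2 and 3, with Fasn at 57.6 and 46.4 FPKM.

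By library, the median difference of the 27 tested synthesis genes from the control mean was −0.06, 0.05 and 0.04 in LPS and −0.14, −0.22 and −0.25 in LPS + G-CDs, against 0.11, 0.03 and −0.11 in the control libraries themselves. For the 4 fatty acid genes it was −0.37, −0.38 and −0.44 in LPS and −0.52, −0.99 and −1.32 in LPS + G-CDs, against 0.14, 0.20 and −0.35 in control, so that control library 3 lay close to LPS. The 5 tested LXR and efflux genes gave −0.02, 0.05 and 0.18 in LPS and −0.27, −0.42 and −0.60 in LPS + G-CDs. Measured from the LPS mean, the same 5 genes had medians of −0.11, −0.0091 and 0.20 in LPS + G-CDs, and their median change against LPS was −0.0029, or −0.19 with the gene-length trend removed. The medians of all 11585 genes stayed between 0.01 and 0.035 in these 6 libraries. These medians are descriptions and were not tested.

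A list of 26 other genes of the same pathways, of which 25 were tested and Rxra was not, gave 4 higher and 10 lower with LPS by limma, where 15.8% and 15.6% of all tested genes were called. The rises included Lpl, a lipoprotein lipase (1.16, SE 0.18), and Ggps1, which extends farnesyl pyrophosphate (0.80, SE 0.15). Cd36, a fatty acid and lipoprotein scavenger receptor, is counted among them but passed the filter only through the groups with LPS, at 0.792 ± 0.0994 FPKM in control and 2.91 ± 0.213 in LPS, so a difference was built into its choice. Acss2, an acetyl-CoA synthetase counted among the falls, likewise passed mainly through control, at 1.61 ± 0.0956 FPKM against 0.776 ± 0.0999 in LPS. The largest falls were Lipa, the lysosomal cholesterol ester hydrolase (−1.09, SE 0.14), Pltp, a phospholipid transfer protein and LXR target (−0.92, SE 0.13), and the fatty acid desaturase Fads2 (−0.70, SE 0.17). LPS + G-CDs against LPS had 0 called by limma and by voom. At an unadjusted limma p under 0.05 there were 1 higher and 2 lower, against 7.19% and 8.04% of all tested genes. LPS + G-CDs against control had 5 higher and 11 lower, Cd36 and Acss2 again counted, against 12.8% and 12.4% of all tested genes, with the elongases Elovl6 (−0.99, SE 0.18) and Elovl5 (−0.89, SE 0.18) among the largest falls.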

How the data were processed

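RNA-seq was performed on 9 libraries of RAW 264.7 cells (control, LPS and LPS + G-CDs, n = 3 each) from poly-A RNA. The authors deposited FPKM per gene and library with gene coordinates and lengths, and the submitters' processing notes name GRCm38 and mm10. Aligner and counter are not given in the sources used here. Every column was mapped to a sample (0 left over).

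FPKM × gene length was a whole multiple of 1 read (within 0.05 reads) for 100% of values, which gave 14752400 to 17312255 reads per library. The read total behind the deposited FPKM was 1.108 to 1.14 times the reads on genes in control, 0.929 to 0.936 in LPS and 0.88 to 0.98 in LPS + G-CDs, so the values already carry a scaling between libraries. These reads were used to state depth, to set a floor of 3 reads (counting error only) and in voom. The unit being FPKM, no count model was the main test.

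The 11585 genes that reached 1 FPKM in 3 or more libraries were transformed as log2(FPKM + 1) and fitted with limma 3.58.1 in R 4.3.3 (trend, 1 model for 3 groups, two-sided, Benjamini-Hochberg over all genes), after the scripts were tested on simulated data. Fold changes are on the log2(FPKM + 1) scale and understate those of low genes. The 21 alternatives were a pseudocount of 0.1, no filter, a filter at 5 FPKM, TPM, median-of-ratios and quantile scaling, only the 6 libraries compared, no trend, voom, a replicate block, the gene-length trend (lowess, span 0.3) removed without and with that block, and each library left out.

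Replicate numbers come from the sample titles, and nothing says what they share. Deviations from the group means in control and LPS libraries of equal number correlated at 0.103, 0.137 and 0.113, all over the limit of 0.1, so by this limit they count as paired. The main test used no pairing. Those of LPS + G-CDs with LPS (0.095, 0.08 and 0.143) and with control (0.28, 0.057 and 0.653) were not all over it. Libraries of unlike number gave −0.127 to −0.014 for LPS with control and −0.164 to 0.068 for LPS + G-CDs with LPS. For LPS + G-CDs with control they gave −0.671 to 0.504, the latter between LPS + G-CDs library 1 and control library 2.

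All 36 members are described. Fold change and adjusted p are printed for called members and for the regulators and exporters, and other pathway genes are named for up to 3 of the largest calls in a direction, with Acss2 and Rxra named besides, after their values were seen, for how they met the filter. Members and lists were chosen with earlier results of these data known. Deposited coordinates equal GENCODE M21 for 31 of 36 members. Tables and figures were made with Python 3.11.15, pandas 2.3.3 and matplotlib 3.10.9.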

Additional observations from a re-analysis of the deposited data

How the results depend on the processing

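Of 21 called changes of single members, 21 kept their sign under every alternative that gave a value and 10 also kept their call. Members called higher with LPS numbered 5 as reported, 3 with no filter, 0 on TPM, 2 with quantile scaling and 1 to 5 when 1 library was left out. Over all genes the counts were 1827, 1795 (of 25079), 1015, 1633 and 1285 to 2169. With no filter, which took all 36 members, the 3 were Msmo1, Soat1 and Abca1. Fdft1, Hsd17b7 and Sc5d lost their calls there (limma adjusted p of 0.053, 0.075 and 0.090). Members called lower numbered 7, and 11 on TPM, 5 to 8 with a library left out, where all genes gave 1803, 3106 and 1189 to 2120. For LPS + G-CDs against LPS every alternative gave 0 higher and 0 lower, leave-one-out included (0 to 0), among 7 to 106 and 4 to 150 of all genes. For LPS + G-CDs against control the higher count was 2, and 0 on TPM and with 6 libraries, 0 to 3 with a library left out, and the lower count was 7, 16 on TPM, and 5 to 8 with a library left out. All genes gave 1488 higher, 755 on TPM, 951 with 6 libraries and 1017 to 1686 with a library left out. They gave 1439 lower, 3255 on TPM and 897 to 1559 with a library left out. With the replicate block, which follows a pairing by number, LPS against control gave 5 higher and 9 lower members (2115 and 1989 of all genes, against 1827 and 1803 without it), LPS + G-CDs against control 2 and 7, and against LPS 0 and 0. The block added lower calls of Mvk and Ebp with LPS and of Fasn for LPS + G-CDs against control (limma adjusted p = 0.047), ended that of Fdps there (limma adjusted p = 0.064), and changed no other call of a member. The causes were not tested.

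Some uncalled regulators changed sign. Srebf1 for LPS + G-CDs against LPS was 0.011 with the length trend removed, without or with the block. Srebf2 with LPS was −0.034 on TPM. Insig1 for LPS + G-CDs against control was −0.41 on TPM, −0.00088 with median-of-ratios, −0.00039 with voom, −0.19 with quantile scaling, −0.019 with the length trend removed, without or with the block, and −0.14 to 0.16 with a library left out. Insig2 with LPS was −0.22 on TPM, −0.026 with quantile scaling and −0.042 to 0.067 with a library left out, and on TPM it was −0.047 against LPS and −0.27 against control for LPS + G-CDs. Nr1h2 on TPM was −0.15 with LPS and −0.14 with LPS + G-CDs against control. Nr1h3 for LPS + G-CDs against LPS was 0.038 with quantile scaling and −0.18 to 0.16 with a library left out.

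With 3 libraries a group and 7 to 75 reads for Abca1 and 0 to 3 for Ch25h, changes of the lowest members rest on few reads.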
